A study of Canis lupus familiaris with 18 samples.

Results

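In canine vascular smooth muscle cells (VSMCs), 15 genes were higher in all 3 aortic cultures than in the matching cultures of both veins, while in canine primary endothelial cells (CaPECs) the mean of the aorta was below 1.5 times that of the veins. These 15 genes, out of the 24580 in the deposited table, were chosen on the values themselves. Read counts were scaled to CPM (the count of a gene divided by the total count of its sample, times 1000000). In each of the 3 replicate numbers, the aortic VSMC sample had at least 5 CPM, and its CPM plus 1 was at least 1.5 times the CPM plus 1 of both the vena cava and the vena porta VSMC sample of that number. In CaPECs, the mean aortic CPM plus 1 was below 1.5 times the mean venous CPM plus 1. Genes restricted to smooth muscle, with at least 5 CPM in all 9 VSMC samples and under 2 CPM in all 9 CaPEC samples, were to be left out, but 0 of the 15 met that description.

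The study cultured both cell types from the abdominal vena cava and aorta and from the vena porta. The vessels came from 3 healthy male dogs a little over a year old and were left over from unrelated pacemaker research. The study names no treatment of the cultures and no genetic change. RNA came from passage 3 cells, and the 18 samples make 6 groups of 3 by vessel and cell type. Within a cell type, each replicate number was taken as a dog. CaPECs grew on gelatin in an endothelial medium and VSMCs in serum-containing DMEM, so cell type and medium cannot be told apart. The cells had been expanded in culture without sorting, and in such bulk samples fewer cells of a type and less RNA per cell cannot be told apart.

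VSMCs are the contractile and matrix-forming cells of the vessel wall. The aorta has a thick elastic media with many layers of them, whereas veins have a thin media and carry blood at low pressure. Smooth muscle of different vessels also comes from different embryonic sources, and cultured VSMCs are known to leave the contractile state for a proliferating, matrix-producing one. The table lists genes by Ensembl identifier without symbols, and the gene table at hand pairs no Ensembl identifiers with names, so what each of the 15 genes does is not described here, and the cell types were not checked against marker genes. The genes are numbered 1 to 15 from the highest to the lowest weakest ratio, which is the smallest of a gene's 6 ratios between same-numbered aortic and venous VSMC samples.

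The total count was 7341227 to 15746769 per VSMC sample and 6020932 to 13422177 per CaPEC sample, so that 5 CPM in the smallest VSMC sample is about 36.7 reads. Between replicates of a group, the median squared difference in a gene's counts was 6.90 to 25.5 times that of counting alone. Scaling by the total count placed the aorta low. Over the 11484 genes tested in VSMCs, the median log2 ratio of aorta to veins was -0.15, and scaling with edgeR's TMM method raised the aorta by 0.17 (log2) relative to the veins. With TMM-scaled CPM, 24 genes met the rule, 14 of the 15 among them, and gene 12 was lost.

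Of 8127 genes with at least 5 CPM in all 3 aortic VSMC samples, 23 had all 6 ratios at 1.5 or above. The CaPEC clause removed 8 of these, with CaPEC ratios of aorta to veins from 1.85 to 39.4. The largest CaPEC ratio kept was 1.42. A further 12 genes had all 6 ratios but an aortic sample below 5 CPM. The weakest ratios just inside the threshold were 1.51 and 1.52, and those just outside, among genes that met the other conditions, were 1.49 and 1.48. The lowest aortic CPM was 5.29 inside and 4.39 outside the floor. With the vena cava in the place of the aorta, 20 genes met the VSMC thresholds that 23 met for the aorta, and with the vena porta 17 did. In the mirrored case, with all venous samples at 5 CPM or more and above the aorta by the same ratio, 38 genes did. This balance depended on the scaling. With TMM-scaled CPM, a choice made after seeing the data, 42 genes met the VSMC thresholds for the aorta, 18 for the vena cava, 11 for the vena porta, and 25 in the mirrored case, and DESeq2's size factors gave 41, 19, 10, and 26.

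Genes 1 and 2 had the highest weakest ratios. Gene 1 (ENSCAFG00000032204) was a gene of low level, with 6.41, 5.78, and 5.29 CPM in aortic VSMCs 1 to 3, which are 78, 58, and 55 reads. In the vena cava it was at 1.65, 0.827, and 0.869 CPM, and in the vena porta at 0.681, 1.73, and 0.404 CPM. Each aortic value thus lay above every venous value, and the ratios ran from 2.48 to 4.48. Gene 2 (ENSCAFG00000000920) was at 8.72, 27.1, and 14.998 CPM in the aorta. It was at 2.79, 4.34, and 5.47 CPM in the vena cava and at 2.997, 7.03, and 4.36 CPM in the vena porta. The lowest aortic value of gene 2, in number 1, lay just above the highest venous value, in vena porta sample 2, while within each number the aorta was at least 2.43 times either vein (CPM plus 1).

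Gene 3 (ENSCAFG00000003550) and gene 8 took up the most reads of the 15, which also depends on the length of a gene. The CPM of gene 3 was 1214, 836, and 1084 in the aorta, 161, 154, and 292 in the vena cava, and 465, 303, and 513 in the vena porta. The 3 vessels did not overlap in this gene, and its ratios to the vena cava, 7.48, 5.39, and 3.70, were each above the ratios to the vena porta of 2.61, 2.75, and 2.11. Gene 8 was at 962, 623, and 556 CPM in the aorta, 319, 295, and 279 CPM in the vena cava, and 509, 331, and 327 CPM in the vena porta. Here too the aorta was the highest and the vena cava the lowest vessel without overlap. Together the 15 genes held 0.352%, 0.254%, and 0.267% of all counts in the aortic VSMC samples, and 0.0831% to 0.163% in the venous ones.

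**Figure D1:**
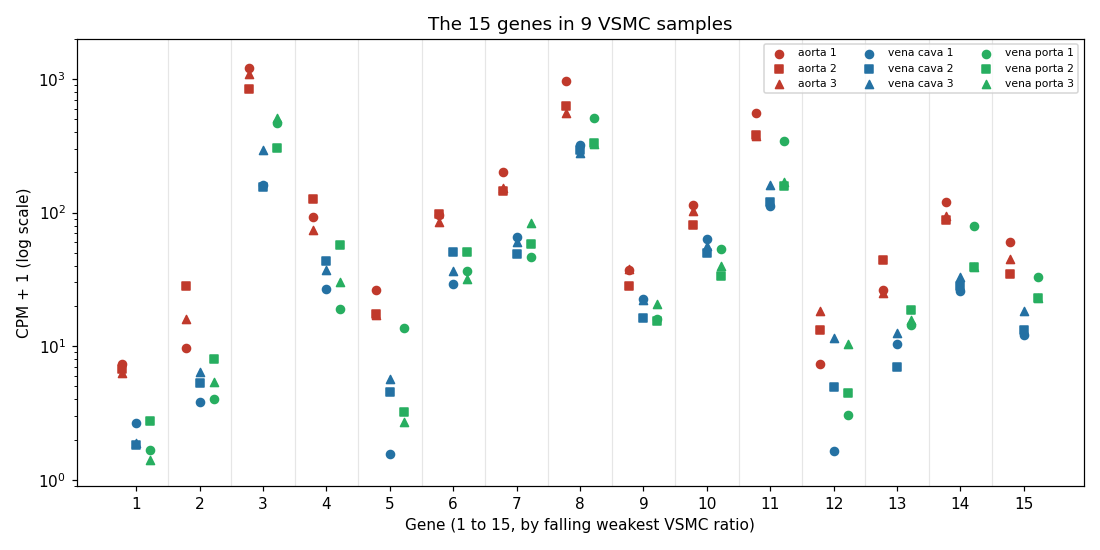
CPM plus 1 (log scale) of the 15 genes in the 9 VSMC samples, with color for the vessel and symbol for the replicate number. The values span from 0.404 CPM in a vena porta sample of gene 1 to 1214 CPM in an aortic sample of gene 3, and in 14 of the 15 the aortic points lie above all venous points.

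The genes differed in which vein came nearest to the aorta. Gene 5 had the largest spread of ratios, from 1.94 to 16.9. It was at 25.5, 16.4, and 16.2 CPM in the aorta and at 0.572, 3.52, and 4.72 CPM in the vena cava, while in the vena porta sample 1 was at 12.7 CPM and samples 2 and 3 at 2.24 and 1.70 CPM. The smallest ratio of a gene was one to the vena porta in 10 of the 15 genes and one to the vena cava in 5. The rule used these ratios, and the share over all genes was not computed. Across the 15 genes, the median ratio in numbers 1, 2, and 3 was 3.31, 2.98, and 2.30 to the vena cava and 2.32, 2.39, and 2.21 to the vena porta, beside 0.817 to 0.984 over all genes tested. The highest aortic sample was number 1 in 9 genes, number 2 in 4, and number 3 in 2, whereas over all genes tested it was number 1 in 21.2% and number 2 in 56.3%. The rule used these values, so the choice of the genes bears on which number was highest.

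Every aortic VSMC sample lay above every venous one in 14 of the 15 genes, where 1.61% of the genes tested do. The count follows from the choice of the genes. The exception was gene 12 (ENSCAFG00000007475), with 6.33, 12.2, and 17.4 CPM in the aorta, 0.635, 3.93, and 10.6 CPM in the vena cava, and 2.04, 3.46, and 9.45 CPM in the vena porta. Its samples were ordered by number as well as by vessel, so that aortic sample 1 was below the venous samples 3.

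**Figure D2:**
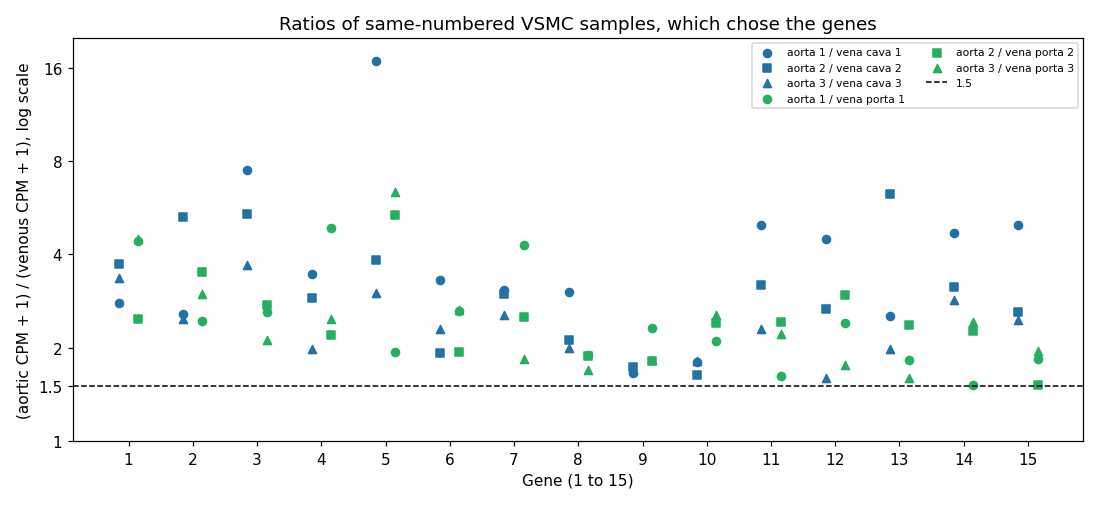
Ratio of aortic to venous CPM (each plus 1, log scale) between VSMC samples of the same number, which chose the genes. The dashed line is the threshold of 1.5, and the ratios run from 1.51 in gene 15 to 16.9 in gene 5, with those to the vena cava (blue) the more spread.

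The comparison of the 3 aortic with the 6 venous VSMC samples in edgeR's quasi-likelihood model used the contrast that chose the genes, so its values are a description. The log2 fold change was positive in all 15, with a median of 1.46 beside -0.01 over all genes tested. It was 2.64 with a standard error of 0.40 for gene 1 and 2.03 with a standard error of 0.34 for gene 2, and lowest for gene 9 at 1.07 with a standard error of 0.20. Genes 1, 6, and 7 were called higher (an adjusted p below 0.05 and a log2 fold change over 0.4 in size), that is, 3 of the 15, where 0.0784% of the genes tested were called higher (9 genes, beside 3 called lower). With a block for the replicate number in the model, 12 of the 15 were called, all but genes 5, 13, and 15, where 0.853% of the genes tested were called higher (98, beside 46 lower), and DESeq2 called 13, where it called 1.73% higher (199, beside 111 lower). With each number left out in turn, 0 of the 15 and 0 of all genes tested were called, and the median log2 fold change of the 15 was 1.39 to 1.65. The rule itself compares samples of the same number. When every aortic sample had to be 1.5 times every venous sample of any number, 4 genes met the rule, which were genes 1, 3, 6, and 7 of the 15.

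The rule set the same threshold against both veins, and the difference between the vena porta and the vena cava was compared next. The rule used these venous values too, so the directions counted here are not independent of the choice of the genes. Over all genes tested, the median ratio of aorta to vein differed between the veins. It was lower for the vena cava (0.817 and 0.913) than for the vena porta (0.946 and 0.984) in numbers 1 and 2. In number 3 it was higher for the vena cava (0.926) than for the vena porta (0.857). In 6 of the 15 genes (3, 8, 11, 13, 14, and 15), the vena porta VSMC sample was above the vena cava sample in all 3 numbers, where 8.86% of the genes tested do so. In 5 of these 6, all but gene 11, no vena cava sample reached a vena porta sample, where the share over all genes tested is 3.36%. In genes 9 and 10 the vena porta was below the vena cava in all 3 numbers, and the share of all genes that do so was not computed. In the fit, 12 of the 15 log2 fold changes were positive, that is, higher in the vena porta, beside 50.3% over all genes tested. The median of the 15 was 0.26, beside 0.00 over all genes tested. It was 0.21 without number 1, 0.11 without number 2, and 0.63 without number 3.

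By the same call, edgeR's quasi-likelihood test found 0 of the 15 between the veins, where 0.00871% of the genes tested were called, and DESeq2 also called 0, where it called 0.592%. An unadjusted p below 0.05 was reached by 5 of the 15 and by 5.19% of the genes tested. Gene 3 had the smallest p of the 15, with 427 ± 109.8 CPM in the vena porta (SD, n = 3) and 203 ± 77.7 CPM in the vena cava (SD, n = 3). Its log2 fold change was 1.12 with a standard error of 0.34 (edgeR, adjusted p = 0.66). With the replicate number as a block, gene 3 was the only one of the 15 to be called, in a fit whose residual spread the matching by number in the rule also bears on, with a log2 fold change of 1.15 with a standard error of 0.20 (edgeR, adjusted p = 0.038), where 0.496% of the genes tested were called.

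Gene 15 (ENSCAFG00000013918) had the next smallest p among the genes higher in the vena porta. It was at 31.7, 21.9, and 22.0 CPM there, at 11.0, 12.3, and 17.3 CPM in the vena cava, and at 59.1, 33.6, and 43.9 CPM in the aorta. The vena porta thus lay between the other vessels, with a log2 fold change between the veins of 0.97 with a standard error of 0.32 (edgeR, adjusted p = 0.69), which was 0.56 without number 1. Gene 14, which followed, was at 119.8, 87.3, and 93.2 CPM in the aorta, at 24.8, 27.2, and 31.9 CPM in the vena cava, and at 78.6, 38.1, and 37.9 CPM in the vena porta, with the vessels again in this order without overlap. In the other direction, gene 10 (ENSCAFG00000005069) was at 62.2, 48.5, and 55.5 CPM in the vena cava and at 52.9, 32.7, and 39.1 CPM in the vena porta, a log2 fold change of -0.34 with a standard error of 0.24 (edgeR, adjusted p = 1.0). Gene 9 (ENSCAFG00000024310) was at 36.1, 27.1, and 36.5 CPM in the aorta, at 21.5, 15.2, and 21.1 CPM in the vena cava and at 14.98, 14.6, and 19.5 CPM in the vena porta, a log2 fold change of -0.17 with a standard error of 0.24 (edgeR, adjusted p = 1.0). Without a block for the number, the test did not separate the veins in any of the 15. Vena porta VSMC sample 1 was the highest of the 6 venous samples in genes 5, 8, 11, 14, and 15. Without number 1, 10 of the 15 log2 fold changes were positive, beside 51% over all genes tested. Gene 5 alone of the 15 then had an unadjusted p below 0.05, as did 3.72% of the genes tested, and it had turned from 1.02 to -1.07.

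**Figure D3:**
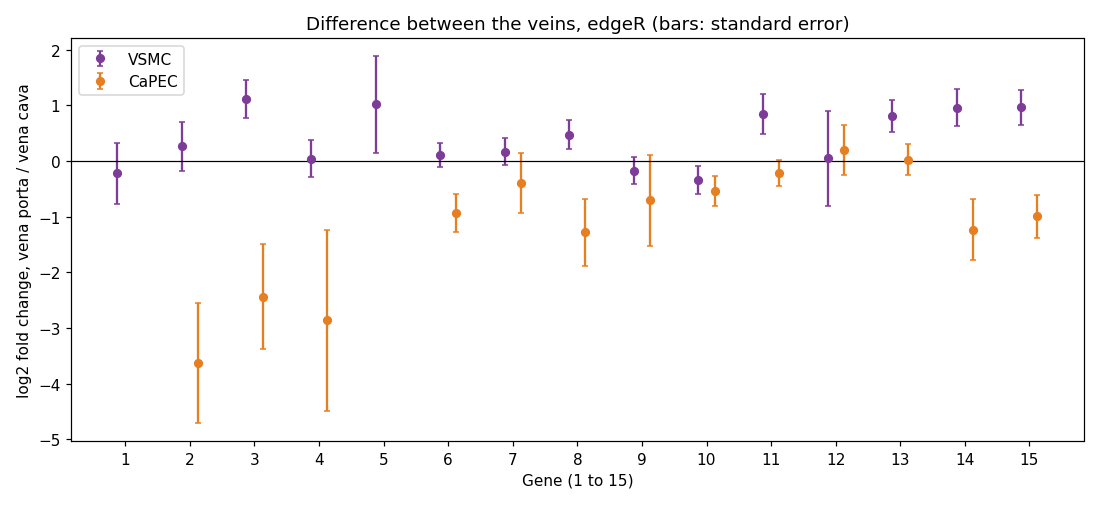
Log2 fold change of the vena porta over the vena cava from edgeR, with its standard error as bars, in VSMCs (purple) and CaPECs (orange). In VSMCs 12 of the 15 points lie above 0, up to 1.12 in gene 3, and in CaPECs 11 of the 13 genes tested lie below 0, down to -3.62 in gene 2.

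The VSMC samples of the 15 genes also differed between the numbers. The rule set samples of the same number against each other, and 11 of the 15 genes, all but genes 1, 3, 6, and 7, met it only because of that, so the differences between numbers are not independent of the choice of the genes and are given as a description. With the vessel in the model, edgeR called genes 10 and 12 between the numbers, 2 of the 15, where 6.44% of the genes tested were called, and DESeq2 called 6, where it called 10.1%. Both edgeR calls were lost without number 2 and without number 3. In each vessel the CPM of gene 12, given above, was lowest in number 1 and highest in number 3. In gene 10 number 1 was the highest in the vena cava and vena porta, as in the aorta, where samples 1 to 3 were at 112, 79.7, and 101 CPM, and number 2 was the lowest in each vessel. In gene 4, sample 2 was the highest in each vessel, with 91.9, 124.8, and 73.2 CPM in the aorta, 25.9, 42.4, and 36.4 CPM in the vena cava, and 18.1, 56.3, and 29.1 CPM in the vena porta.

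In CaPECs, the levels of the 15 genes covered the whole range from hardly counted to higher than in VSMCs. The choice of the genes used the CaPEC values, so levels in the cell types are described without a test. In 4 genes (5, 6, 9, and 11), all 9 VSMC samples were above all 9 CaPEC samples, and 3 of them are among the 13 genes tested in both cell types, where 2.44% of all 11108 such genes are so placed. Gene 5 was not tested in CaPECs. Gene 5 had at most 6 reads in a CaPEC sample and 0 in 5 of the 9. Gene 6 (ENSCAFG00000010085) was at 83.6 to 97.3 CPM in the aortic and 28.1 to 50.1 CPM in the venous VSMCs, and at 4.25 to 11.8 CPM in CaPECs. Gene 11 was at 558, 383, and 372 CPM in the aorta, 111, 119.6, and 161 CPM in the vena cava, and 343, 158, and 168 CPM in the vena porta, beside 38.4 to 92.3 CPM in CaPECs.

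Gene 12 went the other way, with 31.3 to 126.6 CPM in CaPECs, and its lowest CaPEC value exceeded its highest VSMC value, where 8.82% of the genes tested in both cell types do. The mean was also higher in CaPECs for genes 10 and 13, and for gene 2 only with vena cava CaPEC sample 1. The mean of gene 2 was 18.6 CPM over all CaPEC samples, 4.53 CPM without that sample, and 8.65 CPM in VSMCs. Gene 13 (ENSCAFG00000005008) was at 45.3 ± 10.2 CPM over the CaPEC samples (SD, n = 9), with little difference between the vessels. In VSMCs it was at 25.2, 43.0, and 23.8 CPM in the aorta, 9.34, 5.996, and 11.6 CPM in the vena cava, and 13.3, 17.6, and 14.6 CPM in the vena porta. Gene 7 was at about the same level in both cell types, with a mean of 94.8 CPM in VSMCs and 86.6 CPM in CaPECs. Its VSMC samples were at 200.2, 144.5, and 152 CPM in the aorta, 64.4, 47.9, and 59.1 CPM in the vena cava, and 45.9, 56.8, and 82.1 CPM in the vena porta, while the CaPEC samples of each vessel overlapped. In all, 13 of the 15 genes, all but genes 1 and 5, passed the filter on low counts in CaPECs.

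The rule allowed the genes to be lower in aortic than in venous CaPECs, and the CaPEC ratio of aorta to veins ran from 0.0410 to 1.42 with a median of 1.01, beside 0.924 over all genes tested in CaPECs. It was lowest in genes 4 (0.0410), 2 (0.0707), 9 (0.439), and 3 (0.4996). Gene 4 was at 0.709, 1.49, and 0.198 CPM in aortic CaPECs, at 208, 1.47, and 18.2 CPM in the vena cava, and at 1.19, 1.30, and 27.1 CPM in the vena porta. Gene 2 was at 0.827, 0.498, and 1.68 CPM in aortic CaPECs, at 130.9, 11.6, and 9.84 CPM in the vena cava, and at 2.76, 1.46, and 7.50 CPM in the vena porta. Vena cava CaPEC sample 1 was thus the highest of all 18 samples in both genes. Without that sample the ratios were 0.166 for gene 4 and 0.262 for gene 2, and the same 15 genes met the rule. The highest ratio was then 1.49, in gene 11, just under the limit of 1.5.

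The highest CaPEC sample was vena cava sample 1 in 6 and vena cava sample 3 in 4 of the 13 genes tested in CaPECs, which makes 10 of 13 beside 35.6% of all genes tested there. The rule had left out genes high in aortic CaPECs, which bears on this count. In gene 3 they were at 202 and 190.2 CPM, beside 8.18 CPM in vena cava sample 2 and 7.08 to 41.5 CPM in the other CaPEC samples. In gene 8 they were at 437 and 395 CPM, beside 83.1 CPM in vena cava sample 2 and 62.2 to 244 CPM in the others. The lowest CaPEC sample was vena porta sample 1 in 7 of the 13 genes, where it is the lowest in 7.43% of the genes tested.

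**Figure D4:**
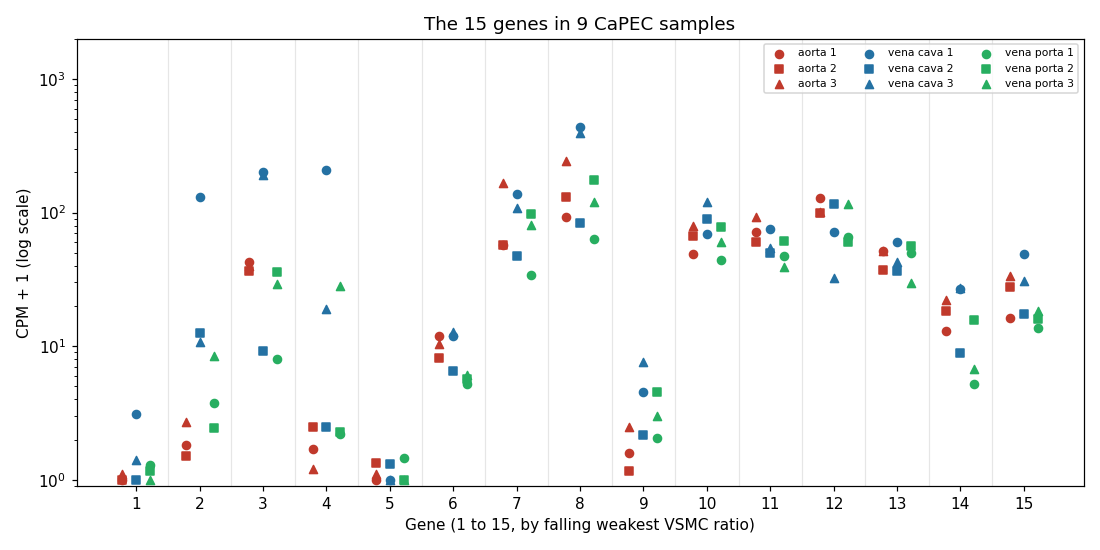
CPM plus 1 (log scale) of the 15 genes in the 9 CaPEC samples, with color for the vessel and symbol for the replicate number, on the axis used for VSMCs. Vena cava sample 1 stands at 130.9 CPM in gene 2 and 208 CPM in gene 4, and gene 5 stays below 0.45 CPM.

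Between the veins in CaPECs, 11 of the 13 genes tested had a negative log2 fold change, that is, a higher value in the vena cava. The median was -0.93, beside 0.00 over all genes tested. The rule used the mean of these venous CaPEC samples, so the directions and p-values here are not independent of the choice of the genes. In each of the 13, the vena porta was above the vena cava in at most 1 of the 3 numbers, where 55.7% of the genes tested show this, and in 4 of them (2, 6, 10, and 15) it was above in none, where 18.5% do. In genes 2 and 6 every vena cava sample was above every vena porta sample, where 9.82% of the genes tested show this. In the fit, 0 of the 13 were called by edgeR's quasi-likelihood test, where 0.00855% of the genes tested were, and 0 by DESeq2, which gave no adjusted p for gene 2 and called 2.97% of the genes tested. An unadjusted p below 0.05 was reached by 4 of the 13 and by 11.7% of the genes tested. Gene 2 had the smallest p, with a log2 fold change of -3.62 with a standard error of 1.08 (edgeR, adjusted p = 0.27), which was -1.15 without number 1. Gene 6 followed, with 10.9, 5.56, and 11.8 CPM in the vena cava and 4.25, 4.70, and 5.12 CPM in the vena porta, a log2 fold change of -0.93 with a standard error of 0.34 (edgeR, adjusted p = 0.35). The 2 genes with positive values were gene 12, at 0.20 with a standard error of 0.45 (edgeR, adjusted p = 0.88), and gene 13, at 0.03 with a standard error of 0.28 (edgeR, adjusted p = 0.98). Without number 1, which holds the high vena cava sample, 5 of the 13 log2 fold changes were positive and 0 had an unadjusted p below 0.05, beside 49.2% and 3.72% of the genes tested. The median of the 13 was then -0.42, beside -1.30 without number 2 and -0.82 without number 3. With number 2 left out, genes 3 and 14 were called lower in the vena porta, with a log2 fold change of -3.40 and -2.31, where 5.37% of the genes tested were called in either direction. With the replicate number as a block, 0 of the 13 were called and 0% of all. Whether the difference between the veins was itself different in VSMCs and CaPECs was not tested.

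Between the numbers in CaPECs, edgeR's quasi-likelihood test called 0 of the 13 genes and 0 of all 11696 genes tested, of which 373 had an unadjusted p below 0.05 and DESeq2 called 33 (0.282%), with 0 of the 13 among them. Gene 10 had the smallest p of the 13, at an unadjusted 0.019 (adjusted p = 1.0 from edgeR), with 47.7, 66.3, and 78.1 CPM in the aorta, 68.5, 88.9, and 119.8 CPM in the vena cava, and 43.4, 77.3, and 59.7 CPM in the vena porta. Gene 2 followed, at an unadjusted 0.16 (adjusted p = 1.0 from edgeR). Whether equal numbers mark one dog across the cell types is not stated, so the numbers were not compared between CaPECs and VSMCs.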

How the data were processed

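The authors aligned single-end reads of 75 bases to canFam3 with STAR 2.4.2a, sorted the alignments with Sambamba, and used HTSeq-count 0.6.1p1, and they deposited the resulting raw counts per gene without normalization. The annotation release and the strand setting are not given in the sources used here, so genes that overlap or share reads with a copy are uncertain. Columns were matched to samples by the names in the labels. CPM was computed from the column totals, which span 6020932 to 15746769. Tests were computed over all genes in R 4.3.3 with edgeR 4.0.16 (TMM scaling, glmQLFit, glmQLFTest, filterByExpr with a minimum count of 10, Benjamini-Hochberg adjustment), with 11484 genes in VSMCs and 11696 in CaPECs and calls at an adjusted p below 0.05. Between vessels a log2 fold change over 0.4 in size, the study's limit, was also required. The study's methods name no adjustment for its p-value, while a figure legend names an adjusted p-value below 0.1 for CaPECs against VSMCs. Standard errors were derived from the F statistic. DESeq2 1.42.0, its size factors, other filters, the replicate number as a block, and each number left out were alternatives, and the code was tested on simulated data. Of 200 genes given a log2 fold change of 2 in size, the VSMC tests each recovered 82.5%. The CaPEC tests recovered 56.5% between the veins and 56% between the numbers. Of the genes called between the numbers, 10.3% in VSMCs and 10.4% in CaPECs had not been changed. Between the veins these shares were 5.71% and 4.24%.

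The study took all vessels from the same 3 dogs, and the column names carry the same number across vessels, so the numbers were taken as dogs. Deviations from the vessel means correlated across genes between same-numbered samples by 0.359 on average in VSMCs (0.0934 to 0.522 over 9 pairs) and by -0.026 in CaPECs. The VSMC tests between numbers and between veins, planned as independent of the rule, are not fully so, since the rule matches numbers and used the venous values. The CaPEC tests, planned likewise, are not fully so either, since the rule used the means of the aortic and venous CaPEC samples. The genes and tests were chosen with earlier results of these data known. Without symbols, identifiers are printed for the 2 genes with the highest weakest ratios and, per tested comparison, for the 2 of smallest p-value, taken in each direction for the veins; the other genes are described by number only, and those singled out were chosen after their values were seen. Nothing says that samples came from separate cultures beyond the dog, so p-values measure the spread between these samples.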

Additional observations from a re-analysis of the deposited data

Results flagged for a closer look

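In 30 sets of samples (for each gene the 9 CaPEC and the 6 venous VSMC samples), 7 held a sample far from its neighbours, where chance flags about 1 in 20. Over all genes tested, 7.88% had such a sample among the CaPECs and 6.26% among the venous VSMCs. The sets share their libraries, and the rule used these values. All 7 were high values of 2 samples, 3 in CaPECs (gene 1 was not among the genes tested there) and 4 in VSMCs. Vena cava CaPEC sample 1 was at 2.10 CPM in gene 1 (next highest 0.406), at 130.9 CPM in gene 2 (next highest 11.6), and at 208 CPM in gene 4 (next highest 27.1). Vena porta VSMC sample 1 was at 12.7 CPM in gene 5 (next highest venous sample 4.72), at 509 CPM in gene 8 (331), at 343 CPM in gene 11 (168), and at 78.6 CPM in gene 14 (38.1).

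In gene 15 the vena porta was above the vena cava in all 3 VSMC numbers and below it in all 3 CaPEC numbers, and the mean log2 ratio (CPM plus 1) was higher in VSMCs by 1.76. This difference was not tested. The same pattern is seen in 1.5% of the genes tested in both cell types.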

How the results depend on the processing

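The number of genes that met the rule was 24 with TMM and 23 with DESeq2 size factors (14 of the 15 in each), 3 at a ratio of 2, 4 with no replicate block in the rule, and 25 to 40 with a number left out. Offsets, floors, a ratio of 1.4, and leaving out vena cava CaPEC 1 (chosen after seeing the data) stayed within 1.5 times. Of the 15, the aorta contrast in VSMCs called 3, but 13 with DESeq2, 6 with no filter (when 15 of 15964 genes were called higher), 12 with the replicate block, and 0 with any number left out, when 0 of all genes were called. The vein contrast in VSMCs called 1 with the replicate block. Between numbers in VSMCs, 6 were called with DESeq2, with no filter, and at an adjusted p below 0.1 (10.1%, 7.5%, and 11.1% of all genes tested), and 0 to 5 with a number left out (9.02%, 1.15%, and 1.21% without numbers 1, 2, and 3). The vein contrast in CaPECs called 0 to 2 with a number left out, its log2 fold change ran from -0.55 (without number 3) to 0.89 for gene 12 and from -0.30 (without number 2) to 0.20 for gene 13, and DESeq2 gave no p for gene 2. The cause was not tested. In the vein contrasts the block changed no call but that of gene 3. The mean of gene 2 in CaPECs minus VSMCs turned from 9.92 to -4.12 CPM without vena cava CaPEC 1, also chosen after seeing the data. Low genes are the least precise, as gene 1 rests on 55 to 78 aortic reads and 5 to 26 venous reads per VSMC sample.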
